A study of Mus musculus with 246 samples.

Results

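The imprinted genes examined here were a list of 34 named genes, chosen by gene symbol with a summed estimated count of at least 100 over all libraries. All 34 of 34 were found and kept, among 56691 genes in the table. Of these, 27 code for proteins and 7 are noncoding RNAs.

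The counts came from polyadenylated RNA of 6 brain regions of 41 adult male mice of the outbred CD1 stock, 1 library per mouse and region. Sampled were 2 cortical areas, the mPFC (medial prefrontal) and the ACC (anterior cingulate), and 4 deeper structures. The latter were the nucleus accumbens (Nacc), the thalamus in its dorsomedial portion (DMT), the ventral part of the hippocampus (vHipp) and the basolateral nuclei of the amygdala (BLA). For the Nacc, the authors name the shell in their methods and the core in their introduction. Ctrl_Veh mice were reared under standard bedding by dams given the vehicle gel, ELA_Veh mice had early life adversity (limited bedding and nesting in the first postnatal days) with vehicle-treated dams, and ELA_SAFit2 mice had the same adversity with dams given SAFit2, an inhibitor of the glucocorticoid receptor co-chaperone FKBP51. The compound was injected under the skin of the dam, so that all pups of a litter shared 1 treatment, and the labels do not say which mice were littermates. In the NoInteraction set each condition had 7 mice, and in the SocialInteraction set, in which each mouse had spent 10 minutes with an unfamiliar mouse, there were 6 Ctrl_Veh, 7 ELA_Veh and 7 ELA_SAFit2 mice. Tissue was taken as bilateral punches, and the counts of both parental copies were summed, so that the values say nothing of which allele was read.

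Genomic imprinting marks a small set of mammalian genes with DNA methylation in the egg or the sperm, so that one parental copy is silenced in the offspring. Such genes sit in clusters around an imprinting control region, and a cluster often pairs coding genes with a long noncoding RNA that is read from the opposite parental copy. The mark is protected after fertilisation by the zinc finger protein ZFP57, which binds a methylated hexamer. Many imprinted genes act in growth, in the hypothalamus and in maternal and social behaviour.

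Promoter windows of 300 bases, from 250 bases before to 50 bases after each annotated start, were taken from RefSeq on GRCm38.p6, and 27 of the 34 imprinted genes had 44 such windows. The 6 bases that ZFP57 binds when methylated (TGCCGC, searched on both strands) occurred in 13 of these 44 windows (29.5%), against 11.6% of all 32851 windows. The windows of imprinted genes held a median of 13 CpG dinucleotides, and all windows a median of 7. A cAMP response element (TGACGTCA, a palindrome, chosen after the values had been seen) occurred in 4 of the 44 windows (9.09%) and in 1.79% of all windows. The windows of Peg3 and Usp29 hold the same site, so that these 4 windows hold 3 sites, and 2 of the 13 windows with the hexamer are Mest windows whose starts lie 3 bases apart. These matches describe letters and are not evidence of binding. One of 3 windows of Mest and both windows of Zdbf2 are shown because these genes differed between the SocialInteraction and NoInteraction sets, and the window of Peg3 because it shares 263 bases with that of Usp29 on the opposite strand. Capitals mark the hexamer in either direction (TGCCGC or GCGGCA) or the cAMP response element.
Mest, chr6:30737803-30738102, plus strand: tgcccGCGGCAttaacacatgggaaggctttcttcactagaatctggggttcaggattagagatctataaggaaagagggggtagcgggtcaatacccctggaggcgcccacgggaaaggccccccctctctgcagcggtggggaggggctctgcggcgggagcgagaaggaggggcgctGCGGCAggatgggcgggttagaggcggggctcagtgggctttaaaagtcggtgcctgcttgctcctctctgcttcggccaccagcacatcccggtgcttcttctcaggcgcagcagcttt
Zdbf2, upstream start, chr1:63200108-63200407, plus strand: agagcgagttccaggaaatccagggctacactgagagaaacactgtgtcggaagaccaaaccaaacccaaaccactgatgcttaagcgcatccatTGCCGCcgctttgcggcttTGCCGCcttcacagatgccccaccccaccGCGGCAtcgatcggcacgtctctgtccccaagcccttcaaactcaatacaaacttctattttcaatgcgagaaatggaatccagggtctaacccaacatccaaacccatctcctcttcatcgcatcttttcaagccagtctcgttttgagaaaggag
Zdbf2, downstream start, chr1:63273019-63273318, plus strand: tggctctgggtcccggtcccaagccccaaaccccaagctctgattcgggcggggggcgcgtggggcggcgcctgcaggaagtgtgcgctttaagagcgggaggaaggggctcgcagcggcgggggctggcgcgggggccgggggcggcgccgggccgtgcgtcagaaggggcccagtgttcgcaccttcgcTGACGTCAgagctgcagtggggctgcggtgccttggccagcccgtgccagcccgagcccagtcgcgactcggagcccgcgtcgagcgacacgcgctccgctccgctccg
Peg3, chr7:6730370-6730669, minus strand: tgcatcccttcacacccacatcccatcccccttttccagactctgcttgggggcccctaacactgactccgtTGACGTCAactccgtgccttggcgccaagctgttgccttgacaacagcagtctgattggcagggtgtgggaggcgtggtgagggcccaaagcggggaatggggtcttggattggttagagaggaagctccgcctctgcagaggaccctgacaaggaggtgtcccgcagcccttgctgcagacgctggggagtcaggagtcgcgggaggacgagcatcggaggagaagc
The Mest window shown held the hexamer 2 times, as did the one 3 bases away, while the third Mest window, at chr6:30733256-30733555, held none. The hexamer occurred 3 times in the upstream Zdbf2 window, while the downstream Zdbf2 window and the Peg3 window held the cAMP response element and no hexamer.

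Total counts were 20804247 to 43351424 per library (median 28844788), and the imprinted genes together took 0.763% to 1.63% of them (median 1.16%). A profile of 60 genes that differ strongly between mice matched 12 of 41 Nacc libraries and 1 of 41 ACC libraries to another mouse than the labelled one. The DMT libraries had 1552 to 3076 CPM of summed thalamus markers (at most 489 CPM elsewhere) and the Nacc libraries 635 to 2417 CPM of striatum markers, while the BLA libraries held both striatum (262 to 1764 CPM) and cortex and amygdala projection neuron markers (342 to 1297 CPM). No library was moved. Regional contrasts, and contrasts within the Nacc and ACC, were also computed without the libraries that matched another mouse. Results per mouse, between mice and of pairs were also computed without the whole Nacc, but with that ACC library. The marker relations and the search for outlying mice used all libraries only. In the mPFC and ACC, mouse 61 (ELA_Veh, SocialInteraction) stood apart for Peg10, Dlk1 and Calcr, and is given beside the results it touches.

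Levels are given as CPM, the count scaled to library size after TMM normalization, and between genes as CPM per kilobase of exon, averaged over the 6 region means. The noncoding RNA Meg3 was the most abundant at 344 CPM per kb, followed by Snrpn, a spliceosome protein gene, at 307 and by Nap1l5, a nucleosome assembly family member, at 170. Gnas (the stimulatory G protein subunit, 99.02), Nnat (neuronatin, 95.5), the noncoding RNA Peg13 (68.3), Ndn (necdin, 61.4) and Impact (a regulator of translational control, 55.4) came next. Peg3, a zinc finger protein gene, stood at 47.6 CPM per kb and the noncoding RNA Rian at 45.6. The highest 10 genes thus included 3 noncoding RNAs.

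A middle group lay between 15.8 and 3.11 CPM per kb. It held Peg10 (15.8), Inpp5f (15.1), Copg2 (13.8), Igf2 (13.03), Trappc9 (9.25), Grb10 (7.82), Ube3a (7.08), Mest (6.69), Igf2r (6.37), Zdbf2 (4.18), Dlk1 (4.12), Mirg (3.88), Usp29 (3.73), Cdkn1c (3.19) and Plagl1 (3.11). The lowest were Sgce (1.76), Ddc (1.42), Magel2 (1.39), Zim1 (1.27), Calcr (0.577), Kcnq1ot1 (0.371), Asb4 (0.297), Airn (0.246) and H19 (0.0418 CPM per kb). H19 had 737 counts in all and no count in 55 of 246 libraries, which limits every statement on it. The strand setting of the counting is not given in the sources used here, so reads of Airn within Igf2r, of Peg13 within Trappc9, of Kcnq1ot1 within Kcnq1 and of the facing ends of Mest and Copg2 may have been shared.

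The regions of a brain differed far more for some imprinted genes than for others. The ratio of the highest to the lowest region mean was 232 for Calcr, 50.2 for Dlk1, 14.8 for Peg10, 10.45 for Magel2, 8.43 for Ddc, 8.07 for Asb4 and 5.93 for Igf2. It was 1.06 for Copg2, a coat protein gene, 1.10 for Ube3a, the ubiquitin ligase of Angelman syndrome, and 1.11 for Trappc9, a trafficking complex gene. These 3 genes, which are expressed from the maternal copy in neurons or in brain, had nearly the same level in all 6 regions.

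Each region was compared with the mean of the other 5 by edgeR's quasi-likelihood test over 26835 genes, and a gene was called where the adjusted p was under 0.05 and the absolute log2 fold change at least 1. In the BLA 10 of the 34 imprinted genes were called higher and 1 lower, where 6.4% of all genes were higher and 1.9% lower. In the mPFC 0 were higher and 7 lower (3.92% and 3.95% of all genes), and in the ACC 0 were higher and 8 lower (4.11% and 4.39%). The Nacc had 3 higher and 1 lower (5.18% and 5.03%), the DMT 2 higher and 1 lower (8.59% and 11.0%), and the vHipp 1 higher and 6 lower (5.53% and 6.07%). The imprinted genes were thus called on the high side mostly in the BLA and on the low side in the cortex and hippocampus, and 12 genes made all of these calls while 22 were called nowhere.

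The median log2 fold change of the 34 genes was -0.45 in the vHipp, where the median over all genes was 0.00, and the median absolute change was 0.60 against 0.25. In the BLA the median was 0.21 against 0.02 and the median absolute change 0.45 against 0.18. The genes are fitted on the log scale against the mean of 5 region means, so that a fold change can differ from the ratio of mean CPM. Regions of a mouse share an animal, and a fit with the mouse as a replicate block called the same genes except Dlk1 in the vHipp, whose log2 fold change went from -1.08 to -0.99. That block follows the labels, also for the libraries that matched another mouse.

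**Figure D1:**
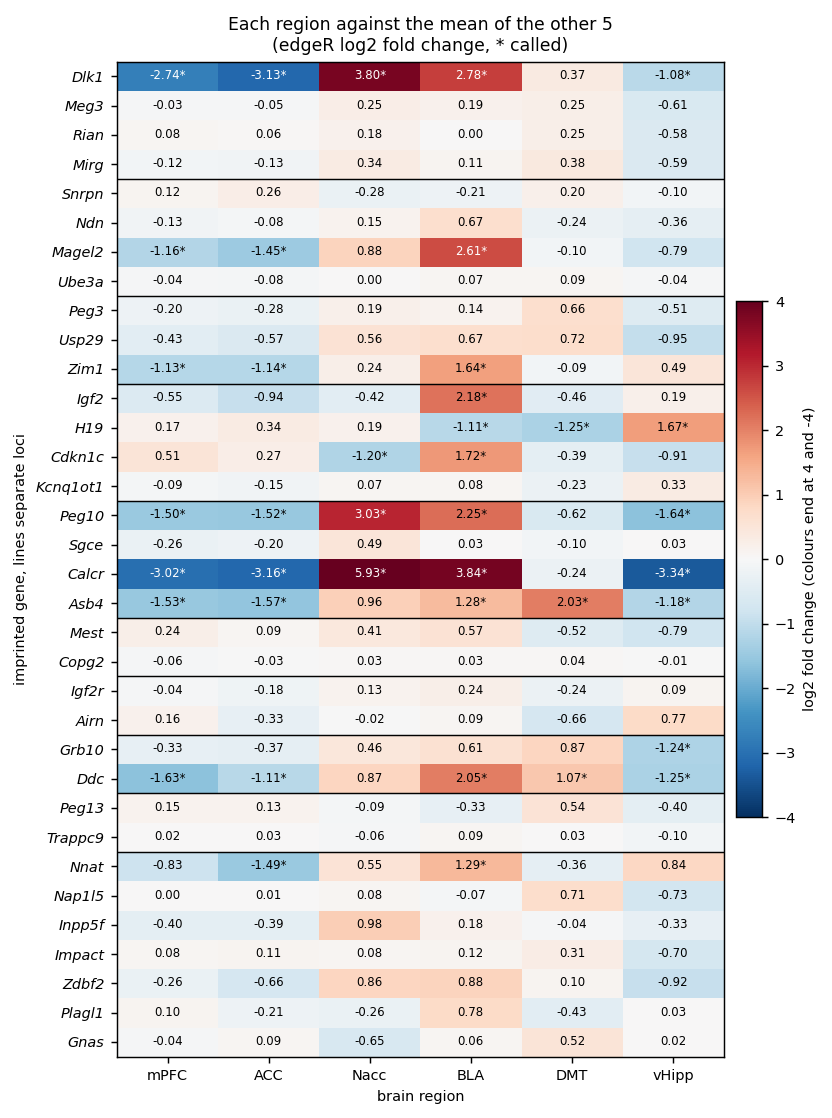
Log2 fold change of each of the 34 imprinted genes (rows, grouped by locus) in each brain region (columns) against the mean of the other 5 regions, 41 libraries per region. Asterisks mark called genes, and the strongest colours lie on Calcr, Dlk1 and Peg10, which were higher in the Nacc and BLA and lower in the mPFC and ACC.

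The cluster around Peg10 and Sgce on chromosome 6 held the widest contrasts, since 3 of its 4 genes were called in each of the mPFC, ACC, BLA and vHipp. Calcr, the calcitonin receptor gene, had a lowest, median and highest level of 0.364, 9.61 and 25.9 CPM in the Nacc. In the BLA these were 1.23, 2.69 and 6.91 CPM and in the DMT 0, 0.168 and 1.39 CPM. In the mPFC and ACC the median library had no Calcr count, with highest values of 0.939 and 1.46 CPM, and in the vHipp the median was 0.0342 and the highest 0.308 CPM. The Nacc and BLA were therefore the regions with Calcr, although their lowest libraries reached into the range of the DMT.

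The log2 fold change of Calcr was 5.93 (SE 0.14, edgeR adjusted p = 5.3e-108) in the Nacc and 3.84 (SE 0.16, adjusted p = 1.04e-62) in the BLA. It was -3.02 (SE 0.34, adjusted p = 4.55e-16) in the mPFC, -3.16 (SE 0.35, adjusted p = 1.61e-16) in the ACC and -3.34 (SE 0.35, adjusted p = 1.15e-17) in the vHipp. The 3 negative values rest on a few counts per library.

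Peg10, a gene derived from a retrotransposon and required in the placenta, had 38.7, 328 and 595 CPM (lowest, median, highest) in the Nacc and 97.3, 198 and 290 CPM in the BLA. In the DMT the values were 20.6, 37.04 and 90.6 CPM and in the vHipp 15.2, 20.9 and 34.0 CPM. The BLA lay above every DMT and vHipp library. Its log2 fold change was 3.03 (SE 0.07, adjusted p = 4.38e-114) in the Nacc, 2.25 (SE 0.07) in the BLA, -1.50 (SE 0.09) in the mPFC, -1.52 (SE 0.09) in the ACC and -1.64 (SE 0.10, adjusted p = 7.44e-43) in the vHipp. Sgce, which encodes epsilon-sarcoglycan and shares a divergent promoter region with Peg10, was called in no region and had region medians of 15.9 to 24.4 CPM.

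Asb4, a substrate receptor of a ubiquitin ligase, was highest in the DMT, at 1.57, 2.60 and 4.81 CPM. The BLA followed at 0.349, 1.57 and 3.59 CPM and the Nacc at 0.400, 1.24 and 5.45 CPM, so that these 3 regions overlapped. Asb4 had a log2 fold change of 2.03 (SE 0.09, adjusted p = 4.21e-59) in the DMT and 1.28 (SE 0.10) in the BLA, and -1.53, -1.57 and -1.18 in the mPFC, ACC and vHipp (SE 0.13 each).

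Of the Dlk1-Meg3 cluster on chromosome 12, only Dlk1 was called. Dlk1, a membrane protein related to Notch ligands, had 6.64, 77.4 and 156 CPM in the Nacc, 24.6, 39.5 and 75.4 CPM in the BLA and 4.51, 10.9 and 21.8 CPM in the DMT. The vHipp followed at 0.570, 3.38 and 17.7 CPM, and the mPFC and ACC had medians of 1.15 and 0.731 CPM. Every BLA library lay above every DMT and vHipp library. The log2 fold change was 3.804 (SE 0.12, adjusted p = 3.02e-83) in the Nacc and 2.78 (SE 0.13, adjusted p = 4.71e-56) in the BLA, against -2.74 (SE 0.20, adjusted p = 1.44e-30) in the mPFC and -3.13 (SE 0.21, adjusted p = 1.09e-34) in the ACC.

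The maternally expressed noncoding RNAs of the same cluster had a different profile from Dlk1. Meg3 ranged from a median of 4276 CPM in the vHipp to 7183 CPM in the Nacc, Rian from 582 to 957 CPM and Mirg from 19.9 to 34.4 CPM. In the vHipp their log2 fold changes were -0.61, -0.58 and -0.59, below the limit of 1 for a call. In each of the other 5 regions the values of these 3 RNAs lay between -0.13 and 0.38.

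**Figure D2:**
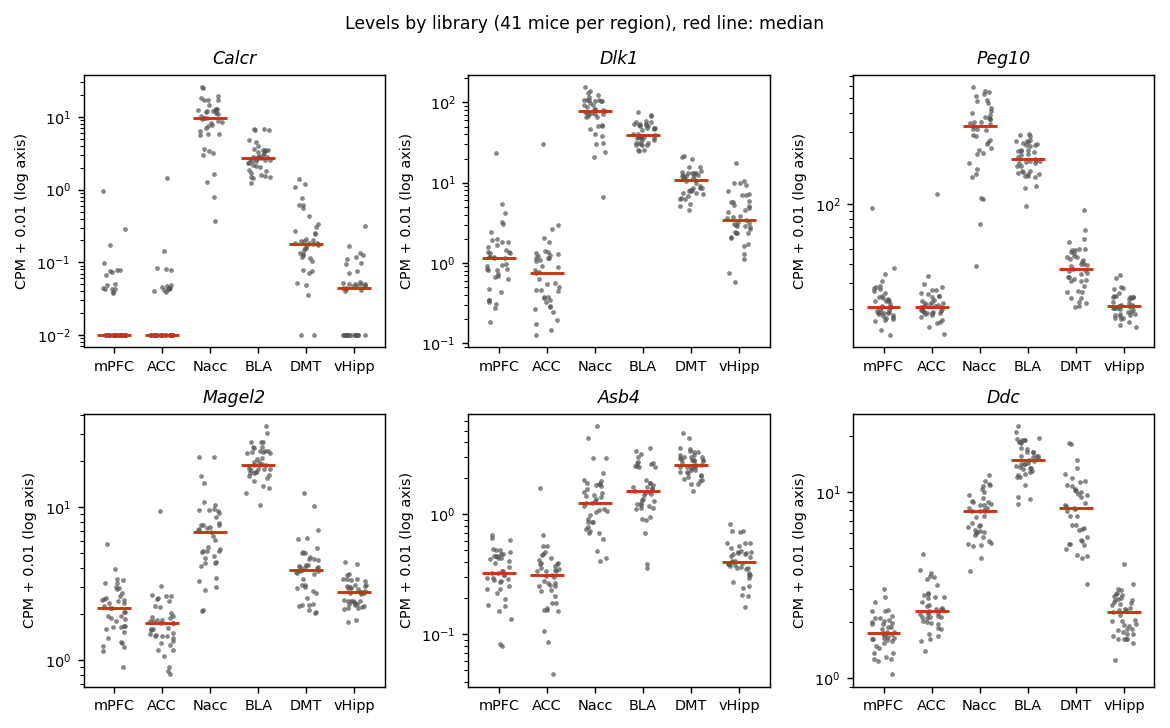
CPM plus 0.01 on a log axis for Calcr, Dlk1, Peg10, Magel2, Asb4 and Ddc in each of the 41 libraries of each region, with the median as a red line. Calcr, Dlk1 and Peg10 had their highest medians in the Nacc (9.61, 77.4 and 328 CPM), Magel2 and Ddc in the BLA and Asb4 in the DMT, and a single mPFC and a single ACC library lie far above the others for Calcr, Dlk1 and Peg10.

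In the Prader-Willi and Angelman cluster on chromosome 7, Magel2 was called and Snrpn, Ndn and Ube3a were not. Magel2, which encodes a regulator of protein recycling in the hypothalamus, had 10.4, 19.002 and 33.9 CPM in the BLA, 2.11, 6.85 and 21.4 CPM in the Nacc and 0.801, 1.74 and 9.39 CPM in the ACC. The BLA median was the highest of the 6, with some Nacc libraries inside the BLA range. The log2 fold change was 2.61 (SE 0.08, adjusted p = 2.6e-89) in the BLA, -1.16 (SE 0.11) in the mPFC and -1.45 (SE 0.11) in the ACC. Its neighbour Ndn had a log2 fold change of 0.67 in the BLA, with 243, 322 and 403 CPM there.

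Igf2 and Cdkn1c, 2 growth genes at the distal end of chromosome 7 were both highest in the BLA. The insulin-like growth factor Igf2 had 21.4, 213 and 524 CPM in the BLA, 28.7, 63.9 and 180 CPM in the vHipp and 8.73, 30.8 and 193 CPM in the mPFC. Cdkn1c, an inhibitor of the cell cycle, had 5.02, 16.1 and 29.2 CPM in the BLA and 1.77, 2.55 and 4.73 CPM in the Nacc. Both had a wide range in the BLA. The log2 fold change of Igf2 in the BLA was 2.18 (SE 0.13), and that of Cdkn1c was 1.72 (SE 0.07) in the BLA and -1.20 (SE 0.09, adjusted p = 7.33e-31) in the Nacc.

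H19, the noncoding RNA that shares its enhancers with Igf2, had its highest level in the vHipp, at 0.0405, 0.192 and 1.27 CPM, with medians of 0.0323 CPM in the DMT and 0.0335 CPM in the BLA, or about 1 count per library. The log2 fold change of H19 was 1.67 (SE 0.20, adjusted p = 1.16e-14) in the vHipp, -1.11 (SE 0.27, adjusted p = 0.00014) in the BLA and -1.25 (SE 0.27, adjusted p = 1.38e-05) in the DMT. In the NoInteraction set alone the BLA value was -0.99 and in the SocialInteraction set alone the DMT value was -0.98, which ended both calls. Kcnq1ot1, the antisense RNA of the Kcnq1 domain, was called nowhere, with medians of 29.5 to 41.4 CPM.

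The remaining calls fell on Ddc, Grb10, Zim1 and Nnat. Ddc, the decarboxylase that makes dopamine and serotonin, had 8.65, 14.9 and 22.6 CPM in the BLA, 3.18, 8.19 and 18.4 CPM in the DMT and 3.76, 7.89 and 12.4 CPM in the Nacc. In log2 terms Ddc differed by 2.05 (SE 0.06) in the BLA, 1.07 (SE 0.06, adjusted p = 1.06e-43) in the DMT, -1.63 (SE 0.08, adjusted p = 2.47e-54) in the mPFC, -1.11 (SE 0.07) in the ACC and -1.25 (SE 0.08, adjusted p = 2.64e-40) in the vHipp. Its neighbour Grb10, an adaptor of insulin and growth factor receptors, was called only as lower in the vHipp (-1.24, SE 0.04), at 21.5, 32.3 and 43.9 CPM there against 81.1, 108 and 149 CPM in the DMT.

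Zim1, the maternally expressed zinc finger gene beside Peg3, had 11.9, 21.9 and 45.8 CPM in the BLA and medians of 4.37 CPM in the mPFC and 4.30 CPM in the ACC. Zim1 had log2 fold changes of 1.64 (SE 0.06) in the BLA and -1.13 and -1.14 in the mPFC and ACC. Nnat, a small membrane protein gene within an intron of Blcap, had 212, 314 and 453 CPM in the BLA and 33.4, 61.4 and 121 CPM in the ACC, with no overlap between these regions. Its log2 fold change was 1.29 (SE 0.06) in the BLA and -1.49 (SE 0.07) in the ACC.

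Among the 22 genes without a call, Inpp5f, an inositol phosphatase gene, came closest, with a log2 fold change of 0.98 in the Nacc, followed by Usp29 (-0.95 in the vHipp), Zdbf2 (-0.92 in the vHipp) and Mest (-0.79 in the vHipp). Impact showed the only complete separation of a region from all others among the 34 genes. Its vHipp libraries lay between 166 and 209 CPM and the lowest library of any other region was at 222 CPM, although the log2 fold change was -0.70 (SE 0.02). The share of all genes with such a separation was not computed. Peg3 and Usp29 had their highest medians in the DMT (898 and 92.5 CPM) and their lowest in the vHipp (463 and 36.0 CPM). Gnas had medians of 1470 CPM in the DMT and 736 CPM in the Nacc, Plagl1 (a zinc finger regulator of growth) of 35.4 CPM in the BLA and 18.04 CPM in the DMT, and Igf2r (the receptor that clears IGF2) of 67.3 and 51.3 CPM in the same regions.

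A list of 20 other imprinted genes, of which 18 were tested, gave 3 higher and 0 lower calls in the BLA, 2 and 0 in the Nacc, 0 and 4 in the DMT and 0 and 1 in each of the mPFC, ACC and vHipp. Of 12 genes that maintain or read DNA methylation at imprints, such as Zfp57, Dnmt1 and Tet3, 1 was called lower in the Nacc and 0 were called in the other regions.

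Several of these genes varied within a region together with markers of tissue that lies beside or inside a punch, and in bulk samples fewer cells of a type and less RNA per cell cannot be told apart. Such relations were computed after the values had been seen, 74 in all, of which 36 had an adjusted p under 0.05 in a permutation test with 100000 resamples. The summed level of 6 choroid plexus markers ran from 22.3 to 5448 CPM in the BLA, from 4.80 to 1324 CPM in the DMT and from 2.23 to 14.4 CPM in the mPFC and ACC. The summed level of 8 meningeal fibroblast markers had medians of 30.4 CPM in the BLA and 65.2 CPM in the vHipp. No marker of either list was at 0 in every library of a region.

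In the BLA, Igf2 followed the choroid plexus markers with Pearson r = 0.98 and Spearman rho = 0.97 over 41 libraries (permutation p = 1e-05 for both, the smallest the resamples can give, adjusted p = 3.52e-05 and 4.62e-05), and r = 0.98 without the 2 farthest libraries. In the mPFC, ACC and Nacc it followed the meningeal markers with r = 0.97 in each (rho 0.95, 0.97 and 0.95). In the vHipp the meningeal r was 0.63 (rho 0.60) and the choroid r 0.17 (rho 0.14, permutation p = 0.277 for r). Cdkn1c followed the choroid plexus markers in the BLA with r = 0.87 (rho 0.93) and in the DMT with r = 0.77 (rho 0.66). Both genes also followed the meningeal markers there, Igf2 with r = 0.76 in the BLA and 0.74 in the DMT (rho 0.73 and 0.68) and Cdkn1c with r = 0.60 and 0.66 (rho 0.57 and 0.62), and the r of Cdkn1c with these markers was 0.47 to 0.69 over the 6 regions (adjusted p up to 0.00415). The part of choroid plexus or meninges in the higher Igf2 and Cdkn1c of the BLA was not tested.

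**Figure D3:**
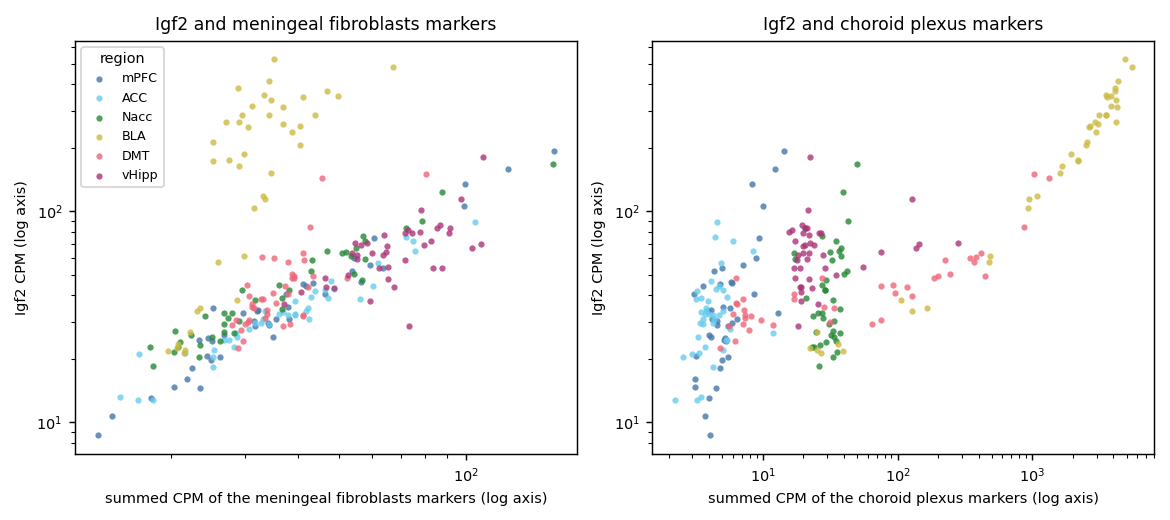
Igf2 in each of the 246 libraries (vertical axis, CPM, log scale) against the summed CPM of 8 meningeal fibroblast markers (left) and 6 choroid plexus markers (right), both on log axes, coloured by region. The BLA libraries leave the common line on the left and form a rising line on the right, up to 524 CPM of Igf2 and 5448 CPM of choroid plexus markers.

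The genes that were high in the Nacc and BLA followed markers of the hypothalamus there. Over 41 libraries Magel2 had r = 0.84 in the Nacc and 0.73 in the BLA (rho 0.80 and 0.66), Asb4 0.86 and 0.77 (rho 0.80 and 0.69), Calcr 0.53 and 0.76 (rho 0.50 and 0.68), Peg10 0.51 and 0.73 (rho 0.50 and 0.64) and Dlk1 0.57 and 0.60 (rho 0.62 and 0.61). The permutation p was 0.00139 or less for each r, with adjusted values up to 0.00321. The summed level of the 6 hypothalamus markers was low, with medians of 8.77 CPM in the Nacc and 8.51 CPM in the BLA, and the part of hypothalamic tissue in these levels was not tested.

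In the mPFC and ACC, where these genes were low, Peg10, Dlk1 and Magel2 followed striatum markers. Asb4 had r = 0.19 with them in the mPFC (rho 0.07, permutation adjusted p = 0.319 for r), and Calcr was not compared there. In the mPFC r was 0.71 for Peg10, 0.70 for Dlk1 and 0.68 for Magel2 (rho 0.59, 0.51 and 0.68), with adjusted p = 3.52e-05 for each r, and without the 2 farthest libraries r was 0.45, 0.49 and 0.63. In the ACC r was 0.55, 0.52 and 0.57 (rho 0.27, 0.27 and 0.39, permutation adjusted p = 0.154, 0.154 and 0.0287 for rho), and without the 2 farthest libraries r was 0.23, 0.32 and 0.46, so that the relations of Peg10 and Dlk1 there rest on those libraries. One of these was of mouse 61, with 650 CPM of summed striatum markers in the mPFC (50.9 to 415 CPM in the other 40 libraries) and 625.3 CPM in the ACC (72.6 to 482 CPM). That mouse had 94.1 CPM of Peg10 in the mPFC and 117 CPM in the ACC, where the other 40 reached 37.8 and 33.4 CPM, and 23.2 and 30.2 CPM of Dlk1, where the others reached 5.43 and 2.96 CPM.

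The next comparisons asked whether adversity in early life, or SAFit2 given with it, left a difference in these genes in the adult brain. Each contrast was the mean of its values in both sets, and ELA_Veh mice serve in 2 of the 3 contrasts, which are therefore not independent. Since the labels do not name litters, the p-values measure the spread between these mice. In the 6 regions together, 0 of 199 tests of an imprinted gene in a region passed an adjusted p of 0.05 for ELA_Veh against Ctrl_Veh, 0 of 199 for ELA_SAFit2 against ELA_Veh and 0 of 199 for ELA_SAFit2 against Ctrl_Veh, with edgeR and with DESeq2. Over all genes 0.0%, 0.00318% and 0.0143% of the tests passed. At an unadjusted p under 0.05 there were 8, 14 and 6 tests of imprinted genes, or about the share of all genes (4.66%, 5.15% and 4.68%), and the smallest adjusted p were 0.700, 0.530 and 0.642. Calcr was not tested in the mPFC, ACC and vHipp and H19 not in the BLA and DMT, where they were below the count limit. For 12 of 41 Nacc libraries the profile matched another mouse, so that their condition labels are in doubt.

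With the 6 regions of a mouse summed, 0 of 34 genes were called in any of the 3 contrasts by edgeR or DESeq2, where 0.0224%, 0.00373% and 0.0112% of 26834 genes were called. At an unadjusted p under 0.05, 8, 4 and 2 of the 34 genes were found (6.59%, 5.68% and 4.65% of all genes). Between ELA_Veh and Ctrl_Veh the median log2 fold change of the 34 genes was 0.03 and 27 of them were above 0, where the median over all genes was 0.00 and 51.9% were above 0. Between ELA_SAFit2 and ELA_Veh the median was -0.04 and 30 of 34 were below 0, where the median over all genes was -0.00 and 48.2% were above 0. These 2 contrasts share the ELA_Veh mice, and several of the 34 genes varied together over mice, as given below. The genes are therefore not independent replicates of a condition, and these counts of signs were not tested.

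The smallest p-values between ELA_Veh and Ctrl_Veh were those of Zim1, Magel2 and Meg3. Zim1 had 7.83, 9.30 and 11.1 CPM (lowest, median, highest) in 13 Ctrl_Veh mice, 8.10, 11.8 and 14.2 CPM in 14 ELA_Veh mice and 7.83, 9.99 and 12.3 CPM in 14 ELA_SAFit2 mice. The 3 groups overlapped over most of their range. Its log2 fold change was 0.24 (SE 0.08, unadjusted p = 0.00421, edgeR adjusted p = 0.461) between ELA_Veh and Ctrl_Veh.

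Magel2 had 5.11, 6.12 and 7.32 CPM in Ctrl_Veh, 5.27, 7.00 and 9.52 CPM in ELA_Veh and 5.01, 6.24 and 7.46 CPM in ELA_SAFit2 mice. Its log2 fold change between ELA_Veh and Ctrl_Veh was 0.24 (SE 0.09, edgeR adjusted p = 0.571). In that contrast the hypothalamus markers had median log2 fold changes of 0.23 in the Nacc, 0.32 in the BLA and 0.46 in the ACC. The medians were 0.40 in the DMT, 0.13 in the vHipp and -0.18 in the mPFC, with 0 of these markers called. The part of hypothalamic tissue in the Magel2 difference was not tested. In the NoInteraction set Magel2 was at 0.41 (SE 0.12, edgeR adjusted p = 0.486). In that set alone 8 of 34 genes had an unadjusted p under 0.05 between ELA_Veh and Ctrl_Veh (5.76% of all genes) and 7 of 34 between ELA_SAFit2 and ELA_Veh (5.19%), with Magel2 and Zim1 in both, and 0 were called. The matching counts of the SocialInteraction set are not given here, so these counts do not show whether the sets differ. Meg3 had 5920, 6103 and 6528 CPM in Ctrl_Veh, 5851, 6480 and 6742 CPM in ELA_Veh and 5730, 6208 and 6511 CPM in ELA_SAFit2 mice. It differed by 0.06 (SE 0.02, adjusted p = 0.574) between ELA_Veh and Ctrl_Veh and by -0.06 (SE 0.02, adjusted p = 0.705) between ELA_SAFit2 and ELA_Veh, and no single value is called.

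Between ELA_SAFit2 and ELA_Veh, Meg3 was followed by Mirg (-0.06, SE 0.03, adjusted p = 0.759) and Zdbf2 (-0.10, SE 0.04, adjusted p = 0.798). Between ELA_SAFit2 and Ctrl_Veh the smallest p-values were those of H19 (0.57, SE 0.25, adjusted p = 0.991), Mest (-0.07, SE 0.04, adjusted p = 0.9998) and Cdkn1c (-0.21, SE 0.11, adjusted p = 0.9998). Cdkn1c was -0.25 (SE 0.11, adjusted p = 0.693) between ELA_Veh and Ctrl_Veh and -0.53 (SE 0.25, adjusted p = 0.989) in the BLA alone, where the median log2 fold change of the 6 choroid plexus markers was -0.51. The part of that tissue was not tested.

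The largest single difference within a region, Dlk1 in the ACC between ELA_Veh and Ctrl_Veh (log2 fold change 2.05, SE 0.59, adjusted p = 0.700), was 0.60 (SE 0.40) without mouse 61. Peg10 in the ACC went from 0.50 (SE 0.17) to 0.19 (SE 0.08) without that mouse. Of 699 tests of whether a contrast differed between the sets, over regions and over the summed regions, 0 passed an adjusted p of 0.05 and 36 had an unadjusted p under 0.05, and the smallest adjusted p was 0.459. Per mouse, 2 of the 34 genes had an unadjusted p under 0.05 for such a difference in the ELA_Veh against Ctrl_Veh contrast (4.92% of all genes) and 5 in the ELA_SAFit2 against ELA_Veh contrast (4.67%). The other imprinted genes and the imprint maintenance genes had 0 calls per mouse in the 3 condition contrasts.

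The SocialInteraction set was compared with the NoInteraction set as the mean over the 3 conditions, since 10 minutes with an unfamiliar mouse is the other axis of the design. The sets were separate groups of mice, so that the interaction and any other difference between the sets cannot be told apart. With the regions summed per mouse, 2 of 34 imprinted genes were called higher and 1 lower, where 5.16% of 26834 genes were called, and 7 of 34 had an unadjusted p under 0.05 (17.8% of all genes). The share of imprinted genes called was therefore near that of all genes. The 3 genes were Mest and Zdbf2, which were higher, and Copg2, which was lower.

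Mest, an enzyme-like protein gene known for its role in growth and maternal behaviour, had 21.8, 25.3 and 27.7 CPM (lowest, median, highest) in 21 NoInteraction mice and 23.4, 27.3 and 31.4 CPM in 20 SocialInteraction mice. The log2 fold change was 0.12 (SE 0.03, edgeR adjusted p = 0.00845). Zdbf2, a zinc finger gene with a start site used early in development, had 43.04, 50.5 and 59.1 CPM and 45.4, 55.9 and 66.6 CPM. Its log2 fold change was 0.12 (SE 0.04, adjusted p = 0.0431). The sets overlapped for both genes.

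Copg2, whose gene faces Mest, had 68.8, 71.4 and 75.4 CPM without and 66.4, 69.7 and 72.8 CPM with the interaction. This is a log2 fold change of -0.04 (SE 0.01, adjusted p = 0.0494). Without mouse 61 the adjusted p was 0.0685 for Zdbf2 and 0.0800 for Copg2, which left Mest as the 1 called gene.

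Within regions the calls fell in the mPFC (3 of 33, all higher, 5.59% of all genes called), the ACC (2 of 33, both higher, 2.8%) and the vHipp (1 of 33, higher, 0.845%). In the Nacc (0.0% of all genes), the BLA (0.897%) and the DMT (1.06%) edgeR called 0 imprinted genes, with 0, 7 and 5 at an unadjusted p under 0.05. The Nacc result is limited, since 12 of 41 Nacc libraries matched another mouse and their set labels are in doubt. DESeq2 called 0 in the Nacc, 2 in the BLA (Calcr, -0.56, adjusted p = 0.0498, and Copg2, -0.08, adjusted p = 0.0379) and 1 in the DMT (Plagl1, 0.17, adjusted p = 0.0230). In the BLA the 5 hypothalamus markers tested had a median log2 fold change of -0.47, with 1 called lower. Their part in the Calcr difference was not tested.

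In the mPFC, Zdbf2 had 26.9, 39.3 and 46.0 CPM without and 36.7, 47.3 and 57.6 CPM with the interaction, a log2 fold change of 0.29 (SE 0.07, adjusted p = 0.00432). Mest had 23.1, 27.6 and 32.5 CPM and 26.5, 30.6 and 37.7 CPM, a log2 fold change of 0.17 (SE 0.04, adjusted p = 0.0138). Ube3a had 125, 138 and 152 CPM and 134, 147 and 161 CPM, a log2 fold change of 0.08 (SE 0.02, adjusted p = 0.0195). The lower end of each range moved up with the interaction, while the ranges still overlapped.

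In the ACC, Mest had 21.8, 25.4 and 28.7 CPM without and 23.8, 28.6 and 33.2 CPM with the interaction, a log2 fold change of 0.20 (SE 0.04, adjusted p = 0.00137). Zdbf2 had 21.2, 30.4 and 34.3 CPM and 19.5, 35.9 and 63.5 CPM, a log2 fold change of 0.34 (SE 0.09, adjusted p = 0.0225). Peg10 in the ACC was at 0.48 (SE 0.14, adjusted p = 0.0514), and without mouse 61 at 0.28 (SE 0.07, adjusted p = 0.0116), so that leaving out the extreme library lowered the difference and brought it past the threshold.

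In the vHipp, Peg10 had 15.2, 19.3 and 23.5 CPM without and 18.5, 24.1 and 34.0 CPM with the interaction, a log2 fold change of 0.35 (SE 0.06, adjusted p = 0.00271). All 3 conditions had a higher mean with the interaction, at 24.6, 24.5 and 24.1 CPM for Ctrl_Veh, ELA_Veh and ELA_SAFit2 against 19.1, 19.5 and 18.9 CPM without. In the other regions Peg10 did not pass the threshold with edgeR, at 0.42 (SE 0.14, adjusted p = 0.0726) in the mPFC, and there at 0.25 (SE 0.09, adjusted p = 0.125) without mouse 61. With all mice, DESeq2 called Peg10 in the mPFC (adjusted p = 0.0364) and in the ACC (adjusted p = 0.0234). The 4 neuron markers had a median log2 fold change of 0.01 in the mPFC, 0.04 in the ACC and 0.02 in the vHipp, and the meningeal list had -0.32, -0.32 and -0.01, with 0 of their genes called. In the ACC 1 of 4 endothelium and 1 of 4 microglia markers were called lower, and the striatum list had a median of 0.21 and the olfactory bulb list of -0.94, with 0 called. In the vHipp the 6 choroid plexus markers had a median of -1.18 with 0 called, and the part of such tissue in these differences was not tested.

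Of the other imprinted genes, 1 of 17 was called lower in the mPFC and 1 of 17 higher in the ACC, and 0 per mouse. Of the 12 imprint maintenance genes, 1 was called higher in the mPFC and 1 lower per mouse.

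**Figure D4:**
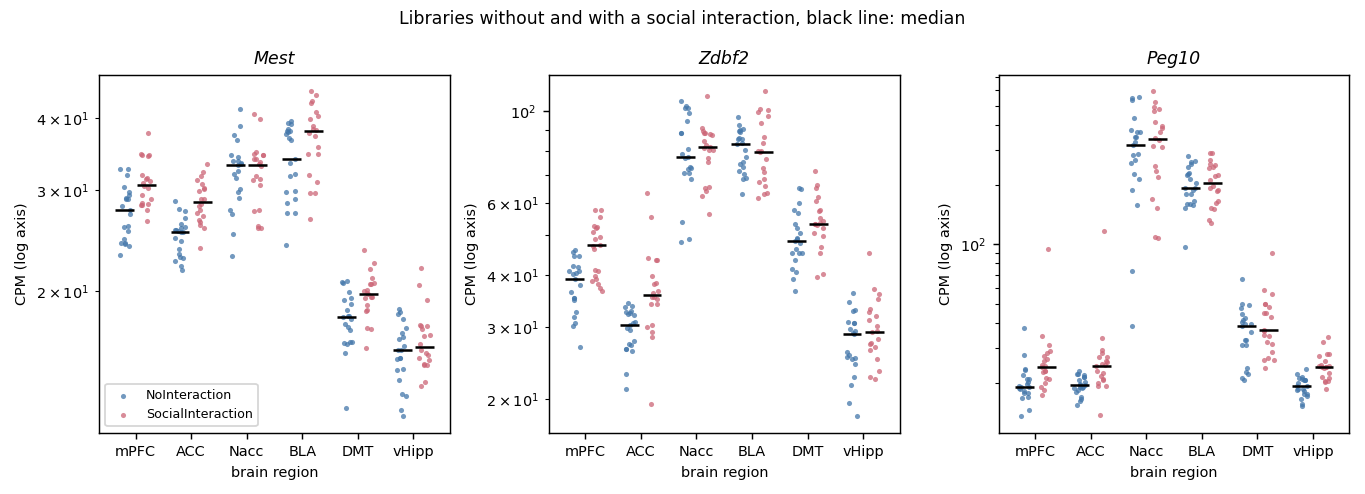
CPM on a log axis of Mest, Zdbf2 and Peg10 in each library of the NoInteraction (blue, 21 per region) and SocialInteraction (red, 20 per region) sets by region, with the median as a black line. With the interaction the median of Mest is higher in every region but the Nacc, that of Zdbf2 in every region but the BLA and that of Peg10 in every region but the DMT, and the ranges overlap in every region.

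A gene may keep a level of its own in a mouse across all of its regions. The CD1 stock is outbred, and genotype, litter and the handling of an animal's tissue cannot be told apart in this measure. After region and group were taken out, a limma F test of the mouse was called at an adjusted p under 0.05 for 11 of 34 imprinted genes, where 34.4% of 26835 genes were called. The median share of the remaining variance that lay between mice was 5.55% for the imprinted genes and 5.95% for all genes, and the share was 0 for 7 of the 34 (20.6%) and for 20.98% of all genes. The imprinted genes as a list were thus close to all genes in this measure. The noncoding members had a median share of 10.6%, with 5 of 7 called, and the coding members 4.87%, with 6 of 27 called. This difference between noncoding and coding members was not tested.

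The highest shares were those of Kcnq1ot1 (28.4%, F test adjusted p = 4.71e-07), Airn (23.7%, adjusted p = 2.76e-05), Peg13 (21.3%, adjusted p = 0.000128), Trappc9 (14.6%, adjusted p = 0.00744) and Usp29 (14.6%, adjusted p = 0.00507). The first 3 of these are noncoding RNAs read from the paternal copy. Over the 41 mice Kcnq1ot1 lay between 30.6 and 39.4 CPM, Airn between 0.579 and 1.22 CPM and Peg13 between 285 and 350 CPM. The lowest of the ranking were Plagl1, Impact and Nap1l5, with a share of 0 and adjusted p of 0.943, 0.952 and 0.975.

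Without the Nacc, which holds 12 of the 13 mismatched libraries, the shares were 38.8% for Kcnq1ot1, 27.9% for Airn, 36.0% for Peg13, 18.4% for Trappc9 and 23.4% for Usp29, and 11 of 34 imprinted genes were called, against 8993 of 26127 genes in all. Of these 11, Copg2 (adjusted p = 0.0221) and Zim1 (adjusted p = 0.0341) were not called with all 6 regions, whereas Sgce (adjusted p = 0.0540) and Mest (adjusted p = 0.102) were no longer called. Peg13 and Trappc9 overlap, and so do the starts of Peg3 and Usp29, whereas the share of Peg3 itself was 0.0163% in the 6 regions.

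**Figure D5:**
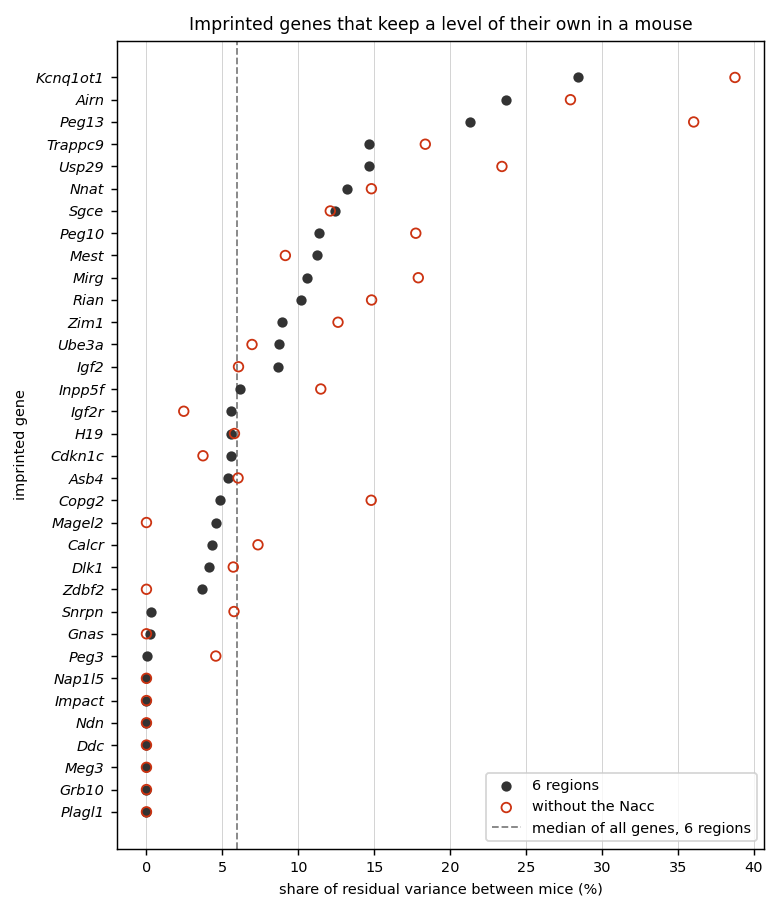
Share of the variance left after region and group that lay between mice (horizontal axis, percent) for each of the 34 imprinted genes, from 6 regions (filled) and without the Nacc (open circles), with the median of all genes (5.95%) as a dashed line. Kcnq1ot1, Airn and Peg13 lead in both, and Copg2, at 4.87%, rises to 14.8% without the Nacc.

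Genes of 1 cluster were then compared over mice, with group means taken out and the regions averaged. Of 16 pairs, 9 had an adjusted p under 0.05 in a permutation test of Pearson r with 100000 resamples. The share of other gene pairs that would pass was not computed, so this count cannot be set against a background. The closest pair was Ndn and Magel2, with Pearson r = 0.80 and Spearman rho = 0.75 (permutation p = 1e-05 each, the smallest the resamples can give, adjusted p = 5.33e-05) and r = 0.77 without the 2 farthest mice. Igf2 and H19 had r = 0.69 (rho 0.68) and Meg3 and Rian r = 0.67 (rho 0.71), both with adjusted p = 5.33e-05. Peg3 and Usp29, whose promoter windows overlap, had r = 0.61 (rho 0.61, permutation p = 2e-05, adjusted p = 8e-05).

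Within single regions the r of Meg3 and Rian lay between 0.63 and 0.85 and that of Peg3 and Usp29 between 0.62 and 0.90, above 0 in 6 of 6 regions. That of Igf2 and H19 lay between 0.15 and 0.70 and that of Ndn and Magel2 between 0.35 and 0.90. Calcr and Asb4 had r = 0.53 (rho 0.52, permutation adjusted p = 0.000992), Peg10 and Sgce 0.52 (rho 0.47, adjusted p = 0.00117), Rian and Mirg 0.51 (rho 0.55, adjusted p = 0.00128), Meg3 and Mirg 0.41 (rho 0.45, adjusted p = 0.0138) and Peg3 and Zim1 0.36 (rho 0.32, adjusted p = 0.0346). These adjusted p belong to r, and for the rho of Peg3 and Zim1 the permutation adjusted p was 0.0669. Markers of the meninges and of the hypothalamus moved with several of these genes within regions, as given above, and their part in the pairs was not tested.

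In the 21 NoInteraction mice alone, Meg3 and Mirg had r = 0.40 (permutation adjusted p = 0.131), Calcr and Asb4 0.44 (adjusted p = 0.0856) and Peg3 and Zim1 0.03 (adjusted p = 0.914), and without the Nacc Peg3 and Zim1 had 0.30 (adjusted p = 0.102). The r of the first pair was close to that in all 41 mice (0.41) and that of the second somewhat lower (0.53 in all), in fewer mice, whereas that of Peg3 and Zim1 was near 0 in this set.

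The other 7 pairs did not pass. Grb10 and Ddc had r = 0.30 (rho 0.29, permutation adjusted p = 0.0921) and Dlk1 and Meg3 0.15 (rho 0.18, adjusted p = 0.417). Pairs of genes read from opposite parental copies lay on both sides of 0. Igf2 and H19 (r = 0.69), Peg3 and Zim1 (0.36) and Dlk1 and Meg3 (0.15) were above 0. The remaining uncalled pairs were below 0, a grouping made after the values had been seen. They were Igf2r and Airn with -0.29 (rho -0.32, permutation adjusted p = 0.0993), Snrpn and Ube3a with -0.26 (rho -0.14, adjusted p = 0.126), Peg13 and Trappc9 with -0.20 (rho -0.22, adjusted p = 0.255), Mest and Copg2 with -0.10 (rho -0.03, adjusted p = 0.547) and Cdkn1c and Kcnq1ot1 with -0.02 (rho -0.05, adjusted p = 0.911). In 4 of 6 single regions Igf2r and Airn, Snrpn and Ube3a and Mest and Copg2 each had an r above 0, so that the sign of these pairs was not the same across regions. Without the Nacc, Igf2r and Airn had rho = -0.40 (permutation adjusted p = 0.0175 for rho) and r = -0.29 (permutation adjusted p = 0.102 for r).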

How the data were processed

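Libraries were made from polyadenylated RNA of bilateral punches of 6 regions of 41 mice (246 libraries), and groups follow the sample labels. The authors deposited salmon output as an estimated count for each gene. Of these values, 12.1% were not whole numbers, and they were rounded. The labels name STAR, DESeq2 and GRCm39, and the salmon version and annotation are not given in the sources used here. Counts were not scaled to depth or length. Exon lengths came from GENCODE M21 and promoters from RefSeq (GRCm38.p6), and no coordinates were moved between builds.

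Testing was limited to genes that reached 100 counts in total and were detected in 6 or more libraries, with edgeR 4.0.16 (TMM, quasi-likelihood, Benjamini-Hochberg adjustment over all genes tested) in R 4.3.3. Differences between mice were tested with limma 3.58.1 on log2 CPM (prior count 1). DESeq2 1.42.0, other normalization and filters, single sets and left-out libraries were alternatives. Tests were checked on simulated counts. For the contrasts these had planted log2 changes of 0.5, 1.5 or 2 and no level shared by the regions of a mouse. The check therefore does not cover smaller differences or shared animals. Correlations used SciPy 1.17.1 in Python 3.11.15. The mouse number of the labels pairs the regions of a mouse. Over single regions, 12 of 41 Nacc libraries correlated at -0.298 to 0.234 with their own mouse and at 0.958 to 0.988 with another, whereas libraries that matched their own mouse had r of at least 0.799.

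The imprinted genes, their loci, the lists of other imprinted and imprint maintenance genes and the marker lists were chosen with earlier results of these data known. Genes were named by rule: all 34 with their level, the 3 highest and 3 lowest called genes of each regional contrast, the 3 smallest p of each condition and set contrast per mouse with any called within a region, the 5 highest and 3 lowest shares between mice, and all pairs. Mouse 61 and the genes called by DESeq2 alone were chosen after their values were seen.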

Additional observations from a re-analysis of the deposited data

Results flagged for a closer look

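With the 6 regions of a mouse summed, a mouse far from the rest of its group was found in 13 of 204 groups of 6 or 7 mice, by the gap to the nearest mouse over the range of the group. Chance alone gives about 1 in 20 groups. The sums include the libraries that matched another mouse, and the search was not repeated without them. In the Dlk1-Meg3 cluster, Dlk1 was at 12.28 CPM in ELA_Veh NoInteraction mouse 99 (24.5 to 34.3 CPM in the rest of its group) and at 13.88 CPM in ELA_SAFit2 NoInteraction mouse 87 (22.1 to 28.5 CPM), and Mirg was at 30.75 CPM in ELA_SAFit2 NoInteraction mouse 15 (26.6 to 28.2 CPM).

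Nnat was at 238.8 CPM in Ctrl_Veh NoInteraction mouse 33 (155 to 183 CPM in the others) and at 240.5 CPM in ELA_Veh NoInteraction mouse 43 (152 to 175 CPM in the others). Igf2r was lowest in Ctrl_Veh SocialInteraction mouse 89 at 52.67 CPM (59.95 to 61.8 CPM in the others), where Snrpn was highest at 736.4 CPM (630 to 664 CPM). In ELA_SAFit2 SocialInteraction mouse 31 Igf2r was at 54.53 CPM (58.45 to 60.6 CPM in the others) and Zim1 at 7.827 CPM (9.96 to 11.7 CPM).

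In the same group Airn was at 1.485 CPM in mouse 79 (0.735 to 0.935 CPM in the others) and Peg13 at 340.4 CPM in mouse 23 (316 to 325 CPM). Plagl1 was at 29.13 CPM in Ctrl_Veh SocialInteraction mouse 57 (22.8 to 24.5 CPM in the others), and Trappc9 at 75.07 CPM in ELA_Veh SocialInteraction mouse 91 (70.3 to 72.2 CPM).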

How the results depend on the processing

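The calls of the regional contrasts were little changed by the alternatives. With the mouse number of the labels as a replicate block, the imprinted genes called lower in the vHipp went from 6 to 5 (Dlk1, log2 fold change -0.99). The other regional counts were the same, with 7 lower in the mPFC and 10 higher in the BLA. That block follows the labels also for the 12 Nacc libraries and 1 ACC library that matched another mouse, so that it accounts for shared animals only in part. In the NoInteraction set alone the genes called lower in the BLA went from 1 to 0 (H19) and those in the vHipp to 5 (Dlk1, -0.82), and in the SocialInteraction set alone the genes called lower in the DMT went from 1 to 0 (H19) and Igf2 joined the ACC (-1.09). With DESeq2 the genes called between the sets were 2 instead of 0 in the BLA and 1 instead of 0 in the DMT. Without mouse 61, an alternative chosen after seeing the data, 1 instead of 3 genes was called between the sets per mouse. Copg2 also missed the threshold with other size factors (adjusted p = 0.0544) and without the Nacc (adjusted p = 0.0588). Without the 13 libraries that matched another mouse, no call of a named gene was lost. The condition contrasts had 0 calls in every alternative run. Without mouse 61, uncalled differences of Dlk1 changed sign in the ACC (ELA_SAFit2 against ELA_Veh, -1.20 to 0.25, and between the sets, 0.52 to -0.45) and in the mPFC (ELA_SAFit2 against ELA_Veh, -0.75 to 0.05, and between the sets, 0.11 to -0.43). Among uncalled pairs, Cdkn1c and Kcnq1ot1 went from -0.02 to 0.02 without the Nacc and 0.09 in the NoInteraction set, and Snrpn and Ube3a from -0.26 to 0.05 in that set. Values that crossed their threshold were those of H19, Dlk1 and Igf2 between regions and of Zdbf2, Copg2, Peg10, Calcr and Plagl1 between the sets. Those of Sgce, Mest, Copg2 and Zim1 between mice, and of 3 pairs by their r, crossed it as well. Each is given here or beside its result. The cause was not tested, except that single sets hold fewer libraries. Depth limits H19, and Calcr outside the Nacc and BLA, which have few counts per library.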
